A study of Mus musculus with 12 samples.

Results

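In the mouse prostate organoids described here, 2 pairs of cultures, S3 and S4, carried more RNA of matrix, protease, complement and interferon genes and less RNA of cell cycle and ribosome-building genes than the pairs S1 and S2. The comparison covers 8 of the 12 RNA-seq libraries of the series: 4 libraries of S3 and S4 against 4 of S1 and S2, each set holding 2 SPOPmut and 2 SPOPwt libraries. The libraries were taken by their titles, but which pairs were set against each other was chosen by RNA levels already seen in these same libraries, with Postn, Col1a2 and Mki67 as marking genes. The contrast between the pair sets is therefore given as a description, with its spread and with no test. Tests are reported only for the effect of genotype and for its difference between the pair sets, which the choice of pairs did not use.

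SPOP recruits proteins to a cullin 3 ubiquitin ligase, which marks them for breakdown. Per the labels, SPOPmut organoids express mutant SPOP and SPOPwt organoids are their controls. All were grown from digested mouse prostate tissue in Matrigel, a basement membrane gel, under a medium with 5 to 50 ng/ml EGF. The labels describe a model A, in which prostate cells were infected with a virus carrying CreERT2 and selected with puromycin, and a model B, from a mouse with a TMPRSS2-CreERT2 transgene. CreERT2 is a recombinase that acts only once tamoxifen is present, and it was switched on overnight with 1 μM 4-hydroxytamoxifen. Mutant cells were then sorted for GFP and control cells passed through a sham sort, so an effect of genotype and of that selection cannot be told apart. A noninducible system, with Cre under the Probasin promoter (PbCre;R26F133V for the mutant and PbCre negative for the control), is also described there. Model A gave 5 of the sequenced pairs and model B gave 1. The sources used here do not give the model of S1, S2, S3 or S4, nor the strain and age of the mice. Whether each pair is a separate animal or culture is not labelled, so the spread between libraries may be technical, and p-values measure only that spread.

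As background, stromal fibroblasts build the connective tissue around prostate epithelium: they secrete fibrillar collagens, proteoglycans and elastic fibre proteins, and they remodel that matrix with secreted proteases and protease inhibitors. Fibroblasts in culture can divide or leave the cell cycle. Dividing cells express genes of DNA replication under E2F control and genes of mitosis under the DREAM and FOXM1 programme, whereas quiescent cells tend to express matrix genes. The same cells also respond to inflammatory signals with chemokines, complement and acute-phase proteins, and to interferons with antiviral and antigen presentation genes.

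The 8 libraries held an estimated 28270000 to 38600000 reads each, read from the spacing of low values. At that depth an RPKM of 1 (reads per length of transcript and per depth of library) in a transcript of 2 kb corresponds to 56.5 to 77.2 reads. The number of genes at that level or above was 13314 to 13885. S1 and S2 were nearly alike: with the same genotype, their per-gene chi-square had a median of 1.84 in SPOPmut and 1.08 in SPOPwt, where sampling alone gives 0.455. The same median was 9.33 and 15.2 between S3 and S4. S1 and S2 therefore differed by more than sampling noise and were kept as separate libraries. Within a genotype, S1 and S3 carry the same index sequence in the labels, as do S2 and S4. No run or lane is labelled, so a technical difference between the pair sets and a difference between the cultures cannot be told apart. Spop stood at 52.5 and 45.1 RPKM in S1, 48.4 and 44.6 in S2, 48.1 and 46.0 in S3 and 57.0 and 47.8 in S4 (SPOPmut before SPOPwt, here and in every such list), with a log2 difference of 0.058 ± 0.061 between the pair sets. Its ligase partner Cul3 stood at 28.4 to 37.1 RPKM in S1 and S2 and at 17.5 to 21.8 in S3 and S4, with no overlap.

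The organoids are labelled as prostate, and that label was checked against marker genes. Several defining markers of prostate epithelium were low in all 8 libraries, and the secretory gene Pbsn was listed at 0 in all 8. The highest values lay in S3 and S4, where Krt5 reached 0.241 RPKM, Krt14 0.201, Epcam 1.28 and Cdh1 1.34. In S1 and S2 these 4 genes reached at most 0.0130, 0.0136, 0.0295 and 0.324 RPKM. Other genes of the luminal list, which many cell types share, were present: 5 of 14 were kept, among them Cd24a at 32.4 to 90.6 RPKM and the keratins Krt18 at 6.35 to 33.3, Krt19 at 7.06 to 72.2 and Krt8 at 1.44 to 11.7. In S3 and S4, Cldn4 reached 3.64 RPKM and the basal factor Trp63 2.28, against at most 0.0155 and 0.25 in S1 and S2. Fibroblast genes were abundant in all 8: S100a4 stood at 1290.1 to 1800.2 RPKM, Col1a1 at 269 to 848 and Vim, the mesenchymal intermediate filament, at 213 to 516. Not all fibroblast markers were present. Thy1 reached at most 0.0204 RPKM and Fap 0.121, and Lum reached 1.59 in S3 and S4 against 0.0135 in S1 and S2. Defining markers of endothelium (Pecam1, at most 0.446 RPKM), leukocytes (Ptprc, 0.00193), smooth muscle (Myh11, 0.0567) and mesothelium (Upk3b, 0.0230) were at or near 0. Msln, which mesothelial cells share with other cells, was not: it stood at 31.8 to 118 RPKM. By most of these markers the 8 libraries were mesenchymal-like, beside the epithelial genes named above.

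Of the 3 genes that mark the contrast, Postn, periostin, is a secreted matrix protein of activated fibroblasts. It stood at 5.05 and 2.43 RPKM in S1, 9.71 and 3.47 in S2, 192 and 145 in S3 and 198 and 48.2 in S4. All 4 libraries of S3 and S4 were above all 4 of S1 and S2, and the lowest of them was the S4 control. The log2 difference was 4.52 ± 0.41 (SE, n = 8 libraries, on the log2(RPKM + 1) scale, as are all differences below), which is 22.9-fold. Each SE between the sets counts the 8 libraries as separate and takes no account of the pairs. Mutant and control of the same number deviated together in S3 and S4 (correlation 0.855), so these SEs can be too small. Col1a2, the second chain of type I collagen, stood at 0.702 and 0.673 RPKM in S1, 1.22 and 0.888 in S2, 12.9 and 12.3 in S3 and 12.9 and 12.2 in S4: the 4 high libraries lay within 1 RPKM of each other, and the difference was 2.87 ± 0.10. Mki67, a nuclear protein of cycling cells, stood at 51.4 and 54.6 RPKM in S1, 55.0 and 50.8 in S2, 8.52 and 5.70 in S3 and 32.4 and 37.1 in S4. It did not separate the sets into 2 even levels: the S3 libraries were far below all others and the S4 libraries lay in between, so that the difference of -1.68 ± 0.69 has a wide error. In GRCm38, Postn lies on chromosome 3 at 54361109 to 54391037 (plus strand), Col1a2 on chromosome 6 at 4504814 to 4541544 (plus strand) and Mki67 on chromosome 7 at 135689784 to 135716361 (minus strand).

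**Figure D1:**
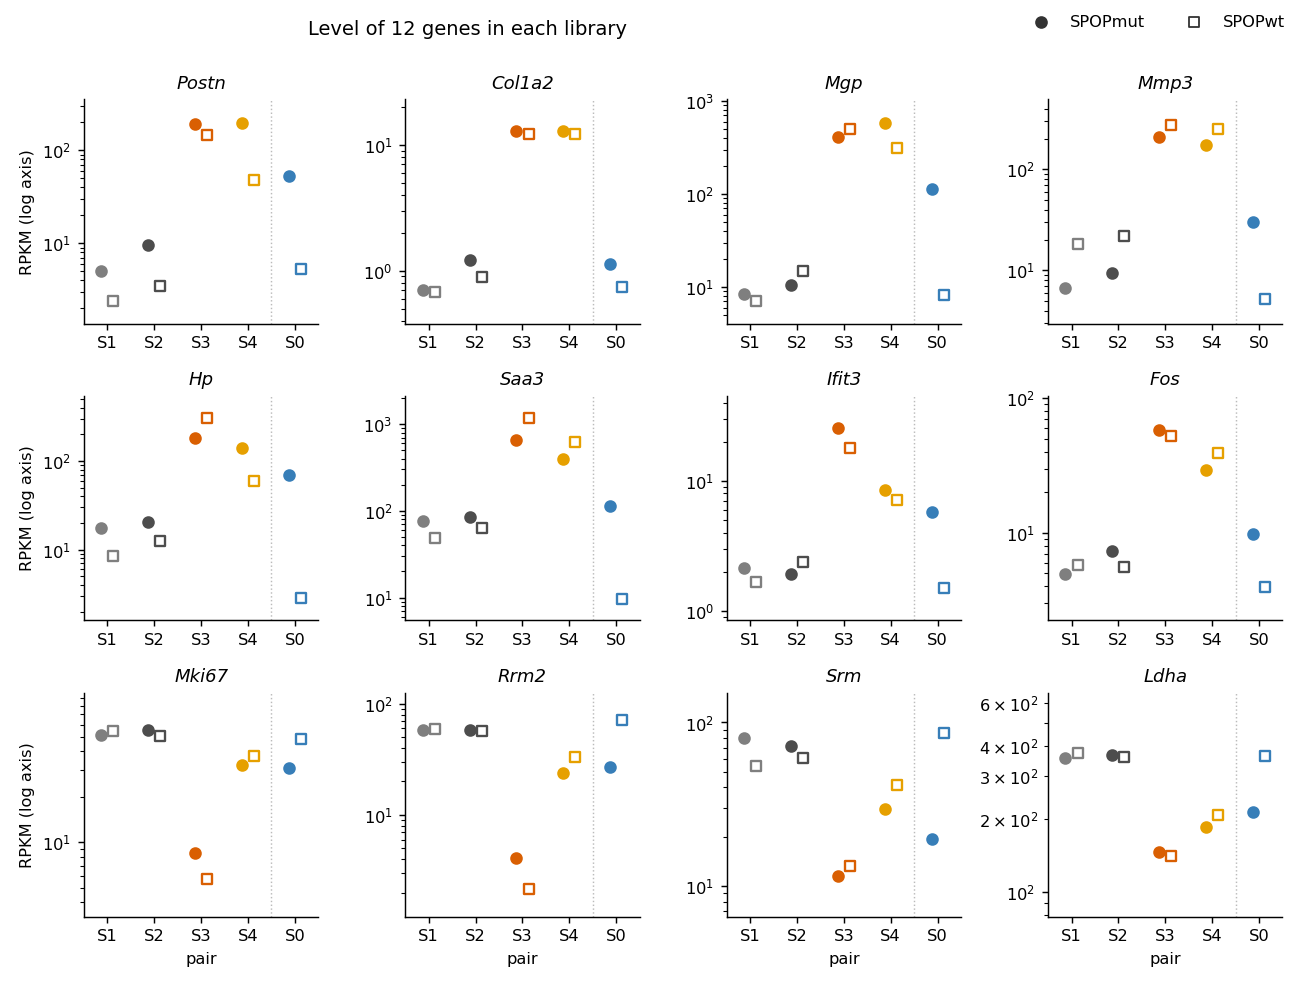
RPKM on a log axis for 12 genes, by pair, with SPOPmut as filled circles and SPOPwt as open squares; S0, to the right of the dotted line, was not used to choose the pairs. Matrix and inflammatory genes such as Postn (48.2 to 198 RPKM) and Saa3 (395 to 1186) stand higher in S3 and S4 than in S1 and S2, whereas Mki67 and Rrm2 are lowest in S3 (5.70 to 8.52 and 2.16 to 4.09 RPKM).

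Genes were kept where 4 or more of the 8 libraries reached an RPKM of 1, which left 13827. A gene is called apart here where all 4 libraries of S3 and S4 lie on one side of all 4 of S1 and S2 and the mean difference is at least 1 on the log2 scale. By that rule 712 genes (5.15%) stood apart higher in S3 and S4 and 589 (4.26%) apart lower. Without overlap at any size there were 3785 genes (27.4%) higher and 3771 (27.3%) lower, and the median difference of all genes kept was -0.0095. The filter lets in genes that are high in 1 set alone: 515 genes were at 1 RPKM in exactly 4 libraries and 315, left out, in exactly 3. Of 292 genes kept through S3 and S4 alone, 148 are among the 712, and of 99 kept through S1 and S2 alone, 35 are among the 589. The counts rest unevenly on the pairs: without S3 they were 382 higher and 160 lower, and without S4 they were 868 and 1244. The larger side thus turned without S4, as it did at an RPKM of 5 or more (423 higher and 499 lower) and in SPOPmut libraries alone (557 and 618). The filter differs in these settings. Without S4, genes at 1 RPKM in S3 alone are left out, while those in S1 and S2 alone are kept. In SPOPmut libraries all 4 must reach 1 RPKM. The part of the filter in the turn was not tested.

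The 12 genes of largest difference with at least 10 RPKM in every S3 and S4 library were led by Mgp, matrix Gla protein, an inhibitor of calcification. Mgp stood at 8.43 and 7.13 RPKM in S1, 10.6 and 14.9 in S2, 412 and 497 in S3 and 583 and 313 in S4, a difference of 5.34 ± 0.31, and the groups were far from overlapping. After Postn came Serpinf1, the secreted factor PEDF (4.28 ± 0.38), the protease stromelysin Mmp3 (4.04 ± 0.22), the collagen VI chain Col6a3 (3.67 ± 0.14), the myosin light chain Myl9 (3.61 ± 0.20), the BMP antagonist Grem1 (3.38 ± 0.65), the haemoglobin-binding acute-phase protein Hp (3.31 ± 0.56), serum amyloid Saa3 (3.28 ± 0.40), Angptl7 (3.26 ± 0.21), the endoplasmic reticulum protein Rcn3 (3.26 ± 0.13) and the myosin light chain kinase Mylk (3.17 ± 0.20). Angptl7 lies within Mtor on the opposite strand, and strand cannot part their reads in these libraries, which were made without strand marks. Of the 150 genes named by rule, 72 overlap the span of another annotated gene, on either strand and with introns counted. Whether reads are shared in these 72 was not tested. Mgp lies on chromosome 6 at 136872435 to 136875823 (minus strand), Serpinf1 on chromosome 11 at 75409769 to 75422701 (minus strand) and Mmp3 on chromosome 9 at 7445822 to 7455975 (plus strand) of GRCm38. On the lower side the list was mixed. It held Rrm2, a subunit of ribonucleotide reductase (-2.45 ± 0.92), Uhrf1, which keeps up DNA methylation at replication (-2.14 ± 0.85), the histone gene H2afx (-2.07 ± 0.46), the chaperone gene Sdf2l1 (-2.28 ± 0.57), the squamous gene Sprr1a (-2.56 ± 0.42), the keratin Krt19 (-2.05 ± 0.48), Prune2 (-2.36 ± 0.43) and the short gene Scand1 (-2.50 ± 0.40). The remaining 4 are uncertain as single genes: Mir7654 (-3.98 ± 0.39) lies within Arglu1 on the same strand, Mir762 (-2.53 ± 0.15) within Bcl7c on the opposite strand, Ccdc85b (-2.15 ± 0.32) overlaps Fosl1, and Rps2-ps10 (-2.01 ± 0.12) is a pseudogene that can share reads with Rps2. Genes apart lower were also shorter, with length taken as the merged exons of all annotated transcripts of a gene. Their median length was 2877 bases against 3658 for all genes kept. A single exon was found in 22.8% against 16.8%, and over 60% GC in 10.5% against 4.21%. The median difference ran from -0.11 in the fifth of genes with the shortest merged exons to 0.056 in the fifth with the longest. The part of gene length and base composition in the lower levels was not tested.

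Genes of the cell cycle stood lower in S3 and S4, and far lower in S3 than in S4. Of the 31 genes of the mitosis list, all 31 were kept, 30 stood apart lower and 0 higher, with a median difference of -1.37. Mki67, which marks the contrast, is among the 30. Of the 32 DNA replication genes 24 stood apart lower and 0 higher (median -1.33), and the other 8 were also lower on average. The median was -2.25 in S3 and -0.48 in S4 for mitosis, and -2.14 and -0.49 for DNA replication. All 63 genes lay further from S1 and S2 in S3 than in S4, as did 77.3% of all genes kept. In bulk RNA, fewer cycling cells and less of such RNA per cell cannot be told apart.

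E2F factors bind the promoters of replication genes, and a CHR element is known for mitotic genes. The stretches before the start of Mcm6, of the helicase that unwinds DNA for replication, of Top2a, the topoisomerase that untangles sister chromosomes, and of Ube2c, a ubiquitin carrier of mitotic exit, show such letters. They are RefSeq sequences of GRCm38.p6, the 120 bases before the start of transcription, and capitals mark E2F letters in Mcm6 (chr1:128359706-128359825, minus strand) and CHR letters in Top2a (chr11:99024190-99024309, minus strand) and Ube2c (chr2:164769809-164769928, plus strand).
Mcm6: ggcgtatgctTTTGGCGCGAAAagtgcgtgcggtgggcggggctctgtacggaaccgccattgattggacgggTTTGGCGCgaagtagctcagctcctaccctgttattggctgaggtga
Top2a: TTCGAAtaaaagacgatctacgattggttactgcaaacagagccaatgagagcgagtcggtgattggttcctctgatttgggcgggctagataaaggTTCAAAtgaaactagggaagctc
Ube2c: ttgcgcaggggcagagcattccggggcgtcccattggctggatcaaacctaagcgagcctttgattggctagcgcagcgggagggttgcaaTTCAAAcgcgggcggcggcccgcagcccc
Letters searched as E2F were TTTCCCGC, TTTGGCGC, TTTCGCGC and TTTGCCGC, and as CHR TTTGAA and TTCGAA, on both strands of the 250 bases before each start. In Mcm6 the first pair of E2F matches overlap each other, and its RefSeq start was not found in a GENCODE M21 transcript of the gene, as the other starts printed here were. E2F letters were in 25.8% of the 31 windows of DNA replication genes (26 of 32 genes in the table) and in 3.27% of the 10780 windows of all genes kept that are in it. CHR letters were in 40.7% of the 27 mitosis windows (25 of 31 genes) against 11.9%, and the CCAAT box, of letters CCAAT, in 85.2% against 35.3%. The table holds 8482 of the 13827 genes kept, so the share over all genes is that of the windows in the table, and a match is a description of letters, not a binding site.

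Rrm2 shows the pattern at its widest. It stood at 57.5 and 59.4 RPKM in S1, 58.4 and 57.4 in S2, 4.09 and 2.16 in S3 and 24.0 and 33.3 in S4. S1 and S2 were level, S4 was lower and S3 was lowest, far below S4. The replicative helicase subunits Mcm5 (46.0 to 61.0 RPKM in S1 and S2, 29.6 to 38.0 in S4 and 3.21 to 5.80 in S3) and Mcm3 (27.6 to 32.4, 15.9 to 22.2 and 1.79 to 3.89) had the same order, as did Uhrf1 (50.9 to 56.2, 25.2 to 35.7 and 3.11 to 5.08). Among mitotic genes, Top2a stood at 69.6 and 73.6 RPKM in S1, 71.7 and 67.1 in S2, 9.73 and 6.20 in S3 and 39.9 and 47.3 in S4. Ube2c stood at 33.8 and 31.2 RPKM in S1, 34.9 and 28.9 in S2, 4.92 and 3.54 in S3 and 13.7 and 17.3 in S4. Cyclin A2 (Ccna2), which drives S phase and entry into mitosis, stood at 66.1 and 60.4 RPKM in S1, 66.2 and 55.4 in S2, 8.85 and 5.97 in S3 and 33.5 and 38.7 in S4. In none of these did the groups overlap. Cdc20, an activator of the anaphase-promoting complex, followed with a difference of -1.81 ± 0.61. Tk1, thymidine kinase, did not separate the sets: it stood at 15.4 to 20.2 RPKM in S4 and at 16.9 to 18.6 in S1 and S2, and its S3 values (3.94 to 5.08) were lower.

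Of 18 G1/S regulators 7 stood apart lower and 0 higher (median -0.76). Cyclin D1 (Ccnd1), which starts the passage through G1, stood at 137 and 160.2 RPKM in S1, 152 and 162 in S2, 29.3 and 24.3 in S3 and 106 and 127 in S4, so that it was far lower in S3 and just below S1 and S2 in S4. Mybl2, a transcription factor of the cycling programme, differed by -1.87 ± 0.54, cyclin E2 (Ccne2) by -1.48 ± 0.50 and the repressor E2f7 by -1.23 ± 0.48. The kinase gene Cdk4 was on the other side, by 0.14 ± 0.045 (80.2 to 86.8 RPKM against 88.7 to 98.5). Inhibitors of cyclin-dependent kinases had 4 of 7 members kept, and 0 of these 4 were apart in either direction. Cdkn1a (p21) overlapped at 21.3 to 46.8 and 17.5 to 34.7 RPKM, Cdkn1b (p27) was higher without overlap (13.9 to 15.0 and 15.9 to 27.2), and Cdkn2d (p19) was lower (15.3 to 17.4 and 4.63 to 13.3). The locus genes Cdkn2a and Cdkn2b reached at most 0.0104 and 0.0566 RPKM in the 8 libraries. Cdkn1c (p57), also left out by the filter, reached at most 0.173 RPKM in S1 and S2 and 2.13 in S3 and S4.

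Genes that build ribosomes in the nucleolus followed: all 24 were lower on average, 11 of them apart, with a median of -0.95 (-1.38 in S3 and -0.58 in S4). Srm, spermidine synthase, stood at 80.8 and 54.2 RPKM in S1, 72.2 and 60.4 in S2, 11.5 and 13.3 in S3 and 29.3 and 41.5 in S4. The 2 sets did not overlap, and S3 was again lowest. Nolc1, a nucleolar phosphoprotein, differed by -1.41 ± 0.32, the ribosome assembly factor Rrp12 by -1.34 ± 0.28 and the RNA helicase Ddx21 by -1.21 ± 0.33. Myc, the transcription factor that drives such genes, overlapped: 56.9 and 56.3 RPKM in S1, 54.8 and 61.1 in S2, 18.8 and 23.5 in S3 and 40.5 and 59.5 in S4. Both S3 libraries were at 18.8 to 23.5 RPKM, and the S4 control reached the level of S1 and S2. ATF4 targets, genes of amino acid supply, had 4 of 23 members kept apart lower and 1 higher (median -0.46). The serine synthesis genes Psat1 (-1.59 ± 0.55) and Phgdh (-1.09 ± 0.35) and the folate enzyme gene Mthfd2 (-1.19 ± 0.51) were lower. Nupr1, a stress-induced chromatin protein, was higher (1.33 ± 0.20).

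Metabolic lists stood near the level of S1 and S2 as a whole. Glycolysis and hypoxia genes had a median of 0.0024, with 2 of 27 apart higher and 1 lower. Within that list the enzymes split by isoform. Ldha, which makes lactate, stood at 358 and 374 RPKM in S1, 369 and 361 in S2, 146 and 140.4 in S3 and 185 and 208 in S4, lower in S3 and S4 without overlap. The isoforms Eno2 (1.37 to 2.19 RPKM in S1 and S2, 18.4 to 18.8 in S3 and 4.99 to 5.56 in S4) and Aldoc (0.392 to 0.979 RPKM against 2.53 to 3.80, kept through S3 and S4 alone) were higher, while Eno1 (78.6 to 84.3 against 44.5 to 66.8) and Aldoa (264 to 275 against 202 to 225) were lower without reaching a difference of 1. Cholesterol synthesis genes had a median of 0.19 and 1 of 25 apart, Insig1, a sterol sensor of the endoplasmic reticulum, which was higher (1.42 ± 0.25). p53 targets were lower, with a median of -0.39. Without overlap 10 of 21 were lower and 2 higher, where all genes kept had 27.3% and 27.4%. Apart lower were 3, Gtse1 (-1.78 ± 0.50), Phlda3 (-1.19 ± 0.14) and Ccng1 (-1.05 ± 0.13), and apart higher 2, the death receptor Fas (1.33 ± 0.13) and Btg2 (1.02 ± 0.39). Gtse1 is also a gene of dividing cells.

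**Figure D2:**
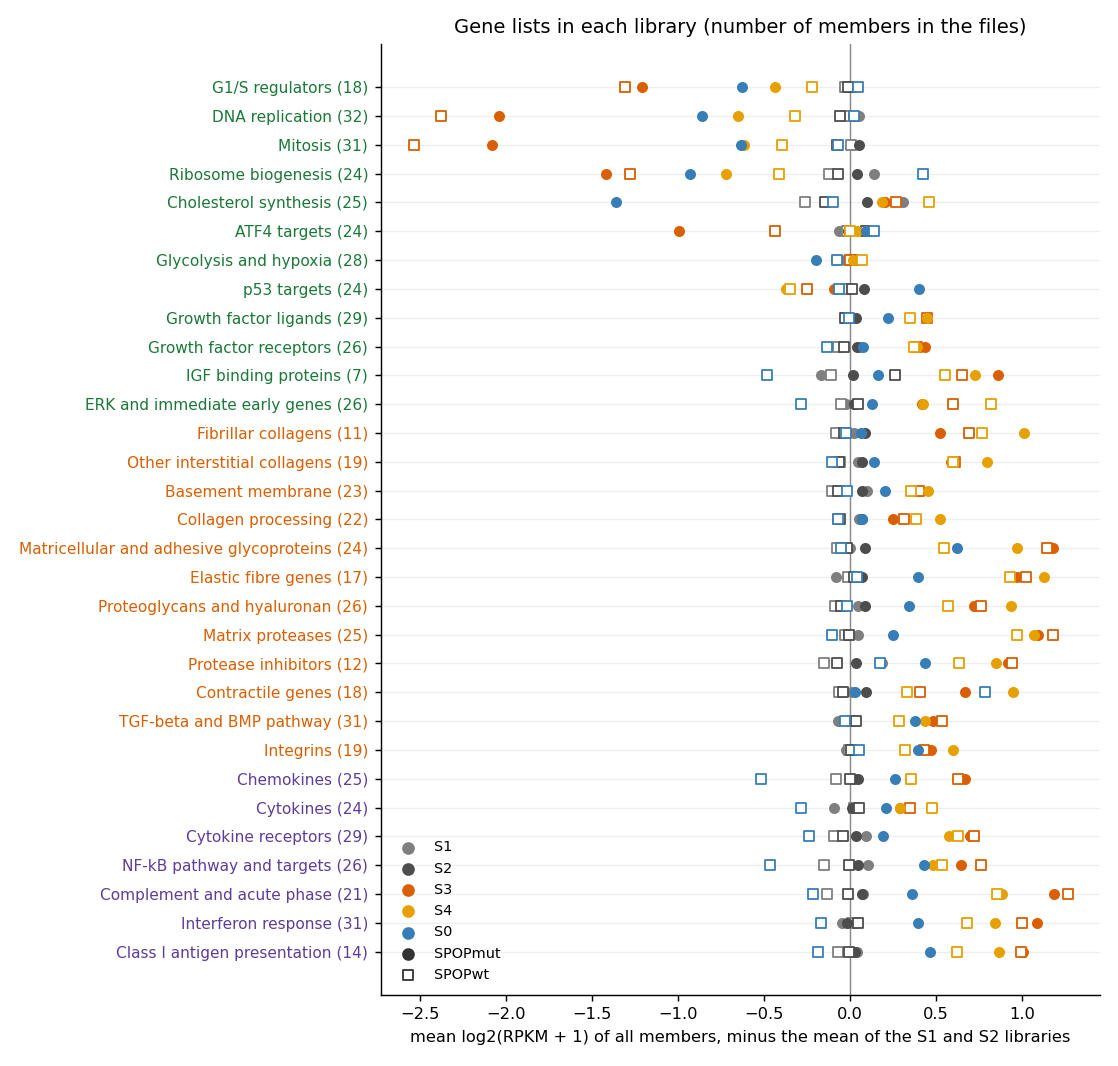
Mean log2(RPKM + 1) over all members of each growth (green), matrix (orange) and inflammatory (purple) list found in the files, in each library, minus the mean of the S1 and S2 libraries; filled circles are SPOPmut and open squares SPOPwt. S3 libraries lie lowest in DNA replication and mitosis, and the blue S0 mutant lies between the sets in many lists while the S0 control lies near S1 and S2 in most lists, lower for chemokines and higher for contractile genes.

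Many growth signalling genes stood higher in S3 and S4, where cell cycle genes stood lower. Of 30 growth factor ligand genes 19 were kept, of which 8 stood apart higher and 1 lower (median 0.47). Of the 8, Gas6, Hgf and Fgf1 were under 1 RPKM in all of S1 and S2 and were kept through S3 and S4 alone. Gas6, the ligand of AXL family receptors, stood at 0.733 and 0.263 RPKM in S1, 0.708 and 0.207 in S2, 18.3 and 18.3 in S3 and 8.10 and 5.35 in S4; S3 was higher than S4, and both were far above S1 and S2. Hgf, hepatocyte growth factor, stood at 0.873 and 0.678 RPKM in S1, 0.940 and 0.683 in S2, 11.04 and 8.14 in S3 and 3.58 and 5.21 in S4, and both pairs were again above S1 and S2. Igf1, which signals survival and growth, stood at 2.56 and 1.098 RPKM in S1, 2.05 and 0.984 in S2, 5.40 and 6.37 in S3 and 10.5 and 5.40 in S4. The acidic fibroblast growth factor Fgf1 differed by 1.23 ± 0.18. Among their receptors 3 of 15 kept stood apart, all higher. Pdgfra stood at 9.81 and 6.99 RPKM in S1, 9.09 and 6.21 in S2, 38.8 and 36.9 in S3 and 37.6 and 33.2 in S4. Pdgfrb stood at 13.7 to 32.1 RPKM in S1 and S2 against 62.1 to 91.2 in S3 and S4, and the collagen receptor Ddr2 at 3.60 to 4.95 against 13.8 to 28.2. Pdgfra and Pdgfrb are receptors for platelet-derived growth factor that mark mesenchymal cells. Egfr, the receptor for the EGF in the medium, was higher without overlap (7.31 to 8.95 against 14.5 to 16.1 RPKM, 0.87 ± 0.044). Of the binding proteins that hold insulin-like growth factors, 4 of the 5 kept were apart higher, with Igfbp3 (1.62 ± 0.28) and Igfbp4 (1.36 ± 0.27) in front, and Igfbp5 overlapped.

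Immediate early genes are switched on within minutes of growth factor signals through ERK. Of 26 on the list with ERK feedback genes, 11 stood apart higher and 2 lower (median 0.63), and of the 11, Egr2, Etv1 and Fosb were kept through S3 and S4 alone. Fos stood at 4.92 and 5.80 RPKM in S1, 7.32 and 5.58 in S2, 58.4 and 52.4 in S3 and 29.2 and 39.4 in S4. Egr1 stood at 60.3 and 73.8 RPKM in S1, 74.9 and 69.6 in S2, 212 and 223 in S3 and 193 and 200.4 in S4, with S3 and S4 within 193 to 223 RPKM, and Egr2 differed by 1.82 ± 0.21. Among feedback genes, the phosphatase Dusp6 differed by 1.10 ± 0.15 and Spry1 by 1.03 ± 0.15. The lower members were Jund (50.4 and 42.7 RPKM in S1, 46.0 and 47.0 in S2, 11.6 and 21.7 in S3 and 8.69 and 9.65 in S4) and Fosl1 (-1.16 ± 0.27). Jund has a single exon and a high GC content (67.1% of its exonic bases), both more frequent among genes apart lower than among all genes kept, and Fosl1 overlaps Ccdc85b. Jun overlapped between the sets (22.5 to 29.2 and 21.2 to 31.5 RPKM).

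Most matrix genes were higher in S3 and S4. Of 11 fibrillar collagen genes 8 were kept and 3 stood apart, all higher (median 0.94). Of the 3, Col1a2 is a gene that marks the contrast and Col27a1 was kept through S3 and S4 alone. In SPOPmut libraries alone and without S4, the filter leaves out Col1a2 and Col27a1. The median of the 6 members kept was 0.24 and 0.31 there. Over 6 members at 1 RPKM or more in all 8 libraries it was 0.61. Col1a1 stood at 269 and 336 RPKM in S1, 353 and 344 in S2, 526 and 679 in S3 and 848 and 682 in S4, a difference of 1.06 ± 0.18, whereas its partner chain Col1a2 differed by 2.87. Type I collagen is built from 2 Col1a1 chains and 1 Col1a2 chain. Per length, Col1a1 RNA was 269 RPKM beside 0.702 of Col1a2 in the S1 mutant and 526 beside 12.9 in the S3 mutant. Col3a1 (443 to 641 and 519 to 819) and Col5a1 (81.0 to 108 and 78.0 to 136) overlapped between the sets. The third chain of collagen VI, Col6a3, also stood out from its partners. It stood at 0.861 and 0.848 RPKM in S1, 0.701 and 1.27 in S2, 20.4 and 21.3 in S3 and 28.1 and 23.8 in S4, while Col6a1 (99.3 to 199.9 against 350.0 to 437 RPKM) and Col6a2 (29.6 to 77.1 against 123 to 183) were already abundant in S1 and S2. Col12a1 differed by 1.18 ± 0.09, and of the 8 interstitial collagens outside the fibrillar group that were kept, 5 stood apart, all higher. Of 15 basement membrane genes kept, 3 stood apart higher: Nid2 (1.62 ± 0.21), Col15a1 (1.28 ± 0.19) and Nid1 (1.09 ± 0.32). Lamb2 missed that count, at a difference of 0.995, and laminin Lamc1 overlapped.

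Enzymes that process collagen were split. Of 19 kept, 6 stood apart higher, among them the prolyl hydroxylase P4ha3 (1.64 ± 0.26), the procollagen protease Bmp1 (1.41 ± 0.12), Adamts2 (1.21 ± 0.17) and the cross-linking oxidase Lox (1.13 ± 0.17). Loxl1 (-0.54 ± 0.14), Loxl4 (-0.69 ± 0.093) and P4hb (-0.45 ± 0.10) were lower without overlap and without reaching a difference of 1. Elastic fibre genes had 9 of 14 members apart higher and 1 lower (median 1.34), with Ltbp2 kept through S3 and S4 alone. Ltbp2, a latent TGF-beta binding protein of microfibrils, stood at 0.256 and 0.0946 RPKM in S1, 0.258 and 0.225 in S2, 10.9 and 11.98 in S3 and 16.2 and 9.65 in S4. Fibrillin 1 (Fbn1), the backbone of microfibrils, stood at 6.42 and 4.26 RPKM in S1, 6.42 and 4.74 in S2, 19.4 and 25.7 in S3 and 40.3 and 38.5 in S4. Mfap5 differed by 2.60 ± 0.24 and the fibulin Fbln2 by 1.87 ± 0.35. The relative Ltbp1 was the lower member (12.6 to 16.5 RPKM against 3.78 to 9.27). Small leucine-rich proteoglycans coat collagen fibrils. Decorin (Dcn) stood at 20.9 and 14.1 RPKM in S1, 19.0 and 15.5 in S2, 123 and 149 in S3 and 201 and 143 in S4. Biglycan (Bgn) stood at 0.323 and 0.227 RPKM in S1, 0.362 and 0.295 in S2, 9.15 and 7.79 in S3 and 17.8 and 5.00 in S4, and Prelp at 14.9 to 21.7 RPKM against 78.0 to 134. All 3 were far from overlapping. Fibromodulin (Fmod) was high in S3 (13.1 to 16.2 RPKM), lower in S4 (2.10 to 3.48) and near 0 in S1 and S2 (0.0514 to 0.233). Of the 17 proteoglycan and hyaluronan genes kept 7 were apart higher and 1 lower, the glypican Gpc1 (-1.56 ± 0.35). Aspn, Bgn and Fmod were kept through S3 and S4 alone. Matricellular proteins, which sit in the matrix and signal to cells, had 7 of 16 apart higher (median 1.03). Postn, which marks the contrast, is among the 7. Beside Postn these included osteopontin (Spp1) at 222 and 163 RPKM in S1, 211 and 215 in S2, 1247 and 1219 in S3 and 807 and 753 in S4, thrombospondins Thbs2 (2.31 ± 0.47) and Thbs1 (1.51 ± 0.16) and Nov (1.80 ± 0.66). Sparc overlapped (421 to 553 and 489.9 to 846 RPKM), as did Ctgf (40.8 to 86.0 and 28.9 to 58.9).

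Matrix proteases form a family that cuts collagens and other matrix proteins. The stretches before the starts of the neighbouring stromelysin genes Mmp3 (chr9:7445702-7445821, plus strand) and Mmp10 (chr9:7502222-7502341, plus strand) each hold the AP-1 letters TGACTCA on the opposite strand, which read TGAGTCA in the capitals here (RefSeq, GRCm38.p6). AP-1 is the factor made of Fos and Jun proteins.
Mmp3: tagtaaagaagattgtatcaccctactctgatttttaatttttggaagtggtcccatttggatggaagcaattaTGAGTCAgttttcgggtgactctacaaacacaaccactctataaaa
Mmp10: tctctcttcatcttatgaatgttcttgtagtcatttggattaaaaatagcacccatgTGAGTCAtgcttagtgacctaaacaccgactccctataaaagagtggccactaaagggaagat
These letters, on either strand, were in 3.19% of the windows of all genes kept. The table held 11 of the 19 proteases kept, under 80%, so a share over the list is void.

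Of 25 protease genes 19 were kept, all 19 were higher on average, and 12 stood apart (median 1.14), of which Mmp9 and Mmp13 were kept through S3 and S4 alone. Mmp3 stood at 6.61 and 18.2 RPKM in S1, 9.37 and 22.0 in S2, 207 and 277 in S3 and 174 and 251 in S4. Mmp10 stood at 7.54 and 12.9 RPKM in S1, 8.12 and 14.5 in S2, 68.6 and 115 in S3 and 55.2 and 47.3 in S4. The control was above the mutant in all 4 pairs for Mmp3 and in S1, S2 and S3 for Mmp10. The gelatinase Mmp9 stood at 0.232 and 0.108 RPKM in S1, 0.0666 and 0.203 in S2, 9.96 and 7.43 in S3 and 11.5 and 5.76 in S4. The collagenase Mmp13 stood at 0.400 and 0.388 RPKM in S1, 0.396 and 0.715 in S2, 5.73 and 14.8 in S3 and 4.46 and 4.55 in S4, highest in the S3 control. The other gelatinase, Mmp2, was already at 32.7 to 43.6 RPKM in S1 and S2 and reached 92.9 to 167. Their inhibitors stood higher too. Of 9 kept, 5 were apart higher, led by Serpinf1 at 1.15 and 0.629 RPKM in S1, 0.941 and 0.675 in S2, 23.6 and 23.5 in S3 and 73.0 and 35.03 in S4. Timp2 differed by 1.14 ± 0.21 and Reck by 1.11 ± 0.18, and Timp1 overlapped (64.9 to 81.2 and 71.8 to 99.6 RPKM). Contractile genes had 2 of 10 kept apart, both higher, where 5.15% of all genes kept stood apart higher. Myl9 stood at 2.02 and 0.637 RPKM in S1, 1.53 and 0.714 in S2, 33.5 and 20.2 in S3 and 45.0 and 13.1 in S4, with the mutant above the control in each pair, and Mylk at 1.83 to 2.57 against 17.6 to 34.0 RPKM. Acta2, smooth muscle actin, which marks myofibroblasts, overlapped at 162 and 149 RPKM in S1, 211 and 158 in S2, 275 and 216 in S3 and 432 and 152 in S4, and Tagln did so at 3.49 to 6.80 and 3.80 to 21.9.

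Transforming growth factor and BMP genes had 5 of 23 apart, all higher: Grem1, Bmp1, Tgfb3 (4.201 to 5.20 RPKM against 11.4 to 15.7), the BMP target Id3 (1.23 ± 0.19) and the SMAD corepressor Skil (1.13 ± 0.21). Grem1 stood at 1.09 and 0.978 RPKM in S1, 1.01 and 2.29 in S2, 44.6 and 47.5 in S3 and 11.5 and 10.6 in S4, so that S3 was above S4 in both genotypes. The receptor Tgfbr2 was lower without overlap (103 to 116 and 69.9 to 102). Integrins, the receptors for matrix, had 3 of 11 apart higher, of which Itga1 and Itga2 were kept through S3 and S4 alone: Itga2 (0.174 to 0.252 RPKM against 1.45 to 4.90), Itgb5 (10.3 to 13.6 against 30.9 to 56.4) and Itga1 (0.452 to 0.632 against 1.60 to 2.80). Itga1 and Itga2 pair with Itgb1 to bind collagen, and Itgb1 overlapped (156 to 218 and 201 to 262).

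Inflammatory genes formed the third block. Of the inflammatory lists, complement and acute phase had the largest median. Of its 21 genes 9 were kept, all 9 were higher without overlap, and 7 stood apart (median 2.43). Of the 9, 2 were kept through S3 and S4 alone, and over all members measured, with no filter, the median was 0.59. Complement C3 stood at 172 and 68.5 RPKM in S1, 119 and 88.7 in S2, 597 and 542 in S3 and 407 and 431 in S4. The protease C1s1 of the classical pathway stood at 35.7 and 24.2 RPKM in S1, 26.3 and 31.7 in S2, 273 and 260.4 in S3 and 172 and 172 in S4. In both, S3 was above S4 and S4 above S1 and S2. Hp stood at 17.5 and 8.40 RPKM in S1, 20.4 and 12.6 in S2, 184 and 306 in S3 and 142 and 59.2 in S4. Saa3, an acute-phase protein that fibroblasts can make, stood at 77.0 and 48.8 RPKM in S1, 86.0 and 62.8 in S2, 659 and 1186 in S3 and 395 and 625 in S4. Both were highest in the S3 control. Lcn2, a siderophore-binding protein of the NF-kB list, differed by 2.01 ± 0.43.

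Of 25 chemokine genes 13 were kept and 5 stood apart, all higher (median 0.64), with Ccl8 kept through S3 and S4 alone. Ccl8, which attracts monocytes, stood at 0.711 and 0.426 RPKM in S1, 0.366 and 0.369 in S2, 11.5 and 10.5 in S3 and 4.31 and 4.27 in S4. Cxcl12, a stromal chemokine that holds CXCR4-bearing cells, stood at 98.8 and 47.6 RPKM in S1, 89.4 and 48.0 in S2, 376 and 296 in S3 and 230.1 and 153 in S4, with the mutant above the control in each pair. Cxcl16 differed by 1.66 ± 0.21 and the neutrophil chemokine Cxcl5 by 1.36 ± 0.23. The most abundant one, Ccl2, overlapped at 485 to 638 and 552 to 992 RPKM, and Cxcl1 and Cxcl2 did as well. Among cytokines 2 of 12 kept stood apart, the colony-stimulating factors Csf3 (3.01 and 2.97 RPKM in S1, 3.97 and 3.93 in S2, 13.7 and 28.2 in S3 and 8.15 and 24.9 in S4) and Csf2 (0.0351 to 0.301 RPKM against 1.13 to 5.66, kept through S3 and S4 alone). Over all genes kept 5.15% stood apart higher, and 2 of 12 are too few to read as a result about the list. The cytokine median was 0.26, and -0.0050 without the S4 control. Il1a and Il1b reached at most 0.180 and 0.0156 RPKM, and Il6 0.856 in S1 and S2 and 2.55 in S3 and S4. Cytokine receptors had 6 of 25 apart higher and 0 lower. Osmr, the receptor of oncostatin M, stood at 4.70 and 4.29 RPKM in S1, 5.00 and 4.43 in S2, 23.4 and 25.6 in S3 and 14.1 and 16.6 in S4; the interleukin 33 receptor Il1rl1 differed by 1.72 ± 0.39, Il1rap by 1.45 ± 0.23 and Il17rd, kept through S3 and S4 alone, by 1.33 ± 0.11. The NF-kB list had 6 of 23 apart higher (median 0.50), of which C3 and Saa3 are also on the complement list. The subunits Rela and Nfkb1 overlapped: Rela was at 41.9 to 51.5 and 41.2 to 54.0 RPKM and Nfkb1 at 30.7 to 42.4 and 34.1 to 39.1. The inhibitor Nfkbia, a feedback target, was lower without overlap (52.6 to 61.3 and 38.9 to 52.2), and the adhesion molecule Vcam1 was higher (1.19 ± 0.13).

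Interferon-stimulated genes carry a response element (ISRE) before their start. It is shown in capitals in the 120 bases before Ifit1 (chr19:34640769-34640888, plus strand), an inhibitor of viral translation that differed by 1.31 ± 0.16, and Gbp2 (chr3:142620543-142620662, plus strand), an interferon-induced GTPase that differed by 1.14 ± 0.12; sequences are RefSeq, GRCm38.p6.
Ifit1: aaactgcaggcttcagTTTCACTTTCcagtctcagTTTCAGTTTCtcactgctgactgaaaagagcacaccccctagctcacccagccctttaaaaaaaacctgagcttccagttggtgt
Gbp2: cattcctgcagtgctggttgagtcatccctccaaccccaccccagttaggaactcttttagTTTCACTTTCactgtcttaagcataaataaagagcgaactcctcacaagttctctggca
The letters searched were GAAA, any 2 bases and again GAAA, on both strands, and both genes hold them on the opposite strand. They were in 2.51% of the windows of all genes kept. The table held 18 of the 24 interferon genes kept, under 80%, so a share over the list is void.

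All 24 interferon response genes kept, of 31, were higher on average in S3 and S4, and 13 stood apart (median 1.01). Of the 24, 9 were kept through S3 and S4 alone, 7 of them among the 13, and for the genes at 1 RPKM or more in all 8 libraries the median was 0.69. Ifit3 stood at 2.12 and 1.66 RPKM in S1, 1.92 and 2.37 in S2, 25.3 and 17.9 in S3 and 8.47 and 7.07 in S4, so that S3 was above S4. Ifi27l2a stood at 0.191 and 0.572 RPKM in S1, 0.350 and 0.942 in S2, 9.62 and 6.33 in S3 and 10.9 and 7.07 in S4. Oasl2, a relative of the RNA-sensing OAS enzymes, stood at 0.592 and 0.658 RPKM in S1, 0.618 and 0.682 in S2, 5.79 and 5.31 in S3 and 5.11 and 2.78 in S4. The tethering factor Bst2, the most abundant of the list, stood at 32.2 to 38.3 RPKM against 64.4 to 122. Levels of classical antiviral genes were low even in S3 and S4: Mx1 reached at most 0.437 RPKM, Rsad2 0.673 and Ifi44 0.777. Class I antigen presentation genes had 7 of 12 apart higher (median 1.18). The light chain B2m stood at 125 and 86.5 RPKM in S1, 94.0 and 93.5 in S2, 400.3 and 359 in S3 and 221 and 180.2 in S4. The heavy chain H2-K1 stood at 10.1 and 7.76 RPKM in S1, 10.3 and 9.08 in S2, 28.7 and 28.3 in S3 and 30.2 and 21.01 in S4, and the peptide transporter subunit Tap2 at 3.21 to 4.22 against 8.36 to 15.2. The immunoproteasome subunit Psmb8, which is on both lists, differed by 1.82 ± 0.15. H2-D1 overlapped (35.9 to 39.4 and 33.8 to 43.0 RPKM); class I heavy chain genes are near copies of each other, and the sources used here do not say how the authors counted shared reads. The chaperone Calr was lower (515 to 563 and 191 to 363).

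Pair S3 lay further from S1 and S2 than S4 did in most genes. Of the 712 higher genes 585 (82.2%) were further from S1 and S2 in S3, with a median of 1.59 in S3 and 1.15 in S4, and of the 589 lower genes 509 (86.4%) were, with medians of -1.81 and -0.71. Over all genes kept the share was 77.3% (10694 of 13827), so that this order was not particular to the genes apart. S3 and S4 differed by at least 1 without overlap in 677 genes (4.90%), and S1 and S2 in 1 gene (0.00723%). The lists did not all share that grading. The median was larger in S3 in 4 of the 12 matrix lists and larger in S4 in the other 8. It was 1.23 in S3 and 1.29 in S4 for proteases, 0.68 and 1.09 for fibrillar collagens and 0.16 and 0.52 for collagen processing. S3 was further out in elastic fibre genes (1.52 and 1.15), protease inhibitors (1.38 and 0.65) and TGF-beta and BMP genes (0.69 and 0.39). For interferon genes it was 1.15 and 0.81. These are values of single pairs, with no test. By matrix list, the share of members further out in S3 was lowest in interstitial collagens outside the fibrillar group (1 of 8). It was highest in protease inhibitors (7 of 9). Single matrix genes further out in S4 were Serpinf1 (3.74 in S3 and 4.81 in S4) and Fbn1 (1.87 and 2.66). The collagen receptor Ddr2 was as well (1.62 and 2.43). Others were out mainly in S3, such as Fmod (3.78 and 1.72) and Nov (2.83 and 0.77).

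**Figure D3:**
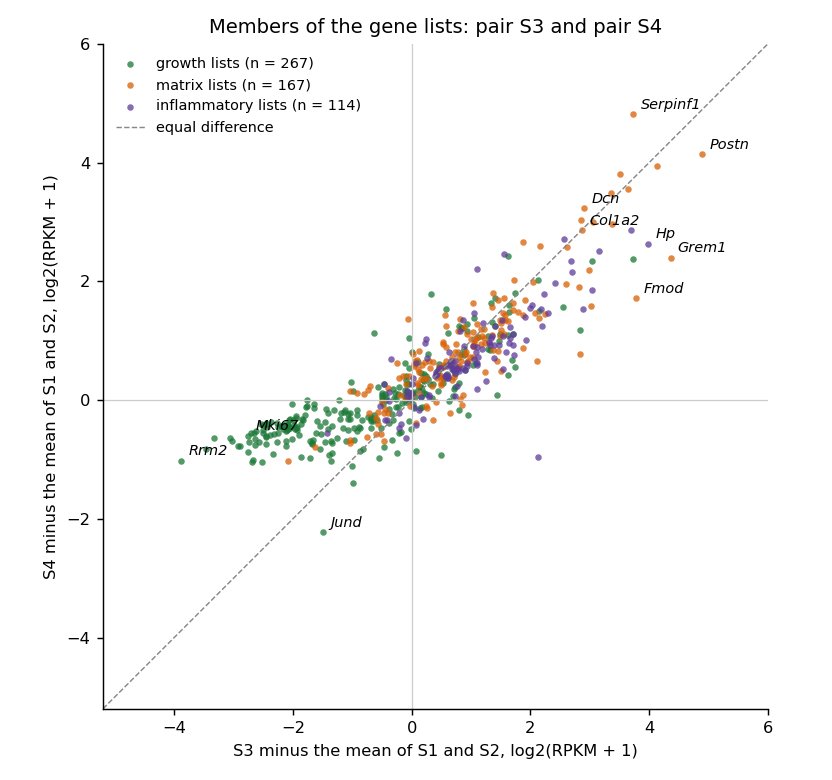
Each point is a gene of the growth (n = 267), matrix (n = 167) or inflammatory (n = 114) lists; the x axis is the difference of S3 and the y axis that of S4 from the mean of S1 and S2, both on the log2(RPKM + 1) scale, and the dashed line marks equal differences. Growth genes spread to the left at small S4 differences (medians of -2.25 and -0.48 for mitosis), whereas for matrix proteases the medians are 1.23 and 1.29.

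Pair S0 was not used to choose the sets, and its 2 libraries lay in different places between them. The S0 mutant was nearer the S3 and S4 mean than the S1 and S2 mean in 257 of the 712 higher genes (36.1%) and in 380 of the 589 lower genes (64.5%), and the S0 control in 11 (1.54%) and 62 (10.5%). Median differences from S1 and S2 over the higher genes were 0.56 in the S0 mutant and -0.19 in the S0 control, and over the lower genes -0.77 and -0.017. In RPKM, mutant before control, S0 stood at 53.5 and 5.36 for Postn, 112 and 8.21 for Mgp, 1.13 and 0.746 for Col1a2, 114 and 9.74 for Saa3, 19.3 and 85.8 for Srm and 31.2 and 47.9 for Mki67. The S0 mutant thus had higher Postn and Mgp beside a Col1a2 level of S1 and S2. Of 24 DNA replication genes apart it was nearer S3 and S4 in 22, but of the 30 mitosis genes in 8. It was nearer in 11 of the 11 ribosome biogenesis genes, in 3 of the 12 matrix proteases and in 1 of the 7 complement genes. These are single libraries, and no test was made of them.

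Marker lists of other cell types were read beside these groups, as the mean log2(RPKM + 1) over all members of a list. Fibroblast markers had a mean level of 3.83 to 4.17 in S1 and S2 and 5.02 to 5.23 in S3 and S4, with 10 of 15 kept apart higher (Prrx1 kept through S3 and S4 alone) and 1 lower, the transcription factor Twist2 (-1.40 ± 0.18). Postn and Col1a2, which mark the contrast, are among the 10 and enter that mean. Vim was lower without overlap (396 to 516 and 213 to 296 RPKM). Of 8 adipocyte markers 3 were kept and 2 stood apart higher, the fatty acid carrier Fabp4 (4.16 and 4.92 RPKM in S1, 3.24 and 5.30 in S2, 23.8 and 30.9 in S3 and 16.9 and 22.9 in S4) and Pparg (0.824 to 1.40 against 2.79 to 7.04), while Adipoq and Plin1 reached at most 0.0384 and 0.0135 RPKM. The list mean was 0.687 to 0.762 in S1 and S2 and 1.06 to 1.32 in S3 and S4. Of 10 mesothelial markers 4 were kept. Krt19 (11.7 and 72.2 RPKM in S1, 34.7 and 58.0 in S2, 8.33 and 8.08 in S3 and 7.06 and 8.82 in S4) and Krt7 (8.74 to 15.3 against 1.32 to 5.68) were apart lower, Bnc1 was apart higher (0.373 to 0.622 against 1.61 to 2.83), Msln overlapped, and Wt1, Upk3b and Lrrn4 reached at most 0.00486, 0.0230 and 0.00757 RPKM. The mean was 1.35 to 1.76 in S1 and S2 and 1.14 to 1.40 in S3 and S4. Of 10 smooth muscle markers 3 were kept and Pgm5 was apart higher (0.302 to 1.04 against 1.12 to 7.26 RPKM); the mean was 1.43 to 1.59 in S1 and S2 and 1.59 to 2.06 in S3 and S4. Eno2, on the neuroendocrine list, is also a glycolytic enzyme, and Tubb3, on the neural list, was lower (-1.13 ± 0.36). Luminal markers had a mean of 1.44 to 1.62 in S1 and S2, 2.135 and 1.85 in S3 and 1.65 and 1.35 in S4. The median difference of the 5 luminal members kept was 0.87 in S3 and -0.60 in S4. Myeloid markers had a mean of 0.727 to 0.786 in S1 and S2 and 0.846 to 1.03 in S3 and S4. Pericyte, lymphocyte, skeletal muscle and erythroid markers had 0 members kept, although pericyte markers had a mean of 0.173 to 0.237 in S1 and S2 and 0.268 to 0.458 in S3 and S4. The S3 mutant stood apart in vascular and blood genes: its endothelial mean was 0.489 against 0.148 to 0.185 in the other 7 libraries, and its erythroid mean 0.237 against 0.0409 to 0.0682. Cdh5 reached 0.833 RPKM and Hba-a1 0.837 in S3 and S4, and at most 0.0267 and 0.0346 in S1 and S2. Without that library 500 genes stood apart higher and 383 lower. The part of these cell types in the differences was not tested.

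Hox genes, which mark position along the body, and Y-linked genes had 0 members apart. 0 of the 19 Hox genes kept (8 HoxA, 8 HoxB and 3 HoxD) stood apart. Over all genes kept 5.15% stood apart higher and 4.26% lower, and by these shares few of 19 genes would. 0 of 9 HoxC genes were kept, and the highest of them, Hoxc6, reached 0.0734 RPKM. Hoxa10 stood at 19.1 and 17.4 RPKM in S1, 17.1 and 15.6 in S2, 18.1 and 15.3 in S3 and 18.01 and 16.3 in S4. Hoxb13, a gene of the prostate, was higher without overlap and below a difference of 1 (10.9 to 13.4 against 16.5 to 29.9 RPKM, 0.84 ± 0.22). The Y-linked gene Ddx3y stood at 15.3 and 12.7 RPKM in S1, 13.7 and 12.8 in S2, 19.2 and 18.2 in S3 and 15.3 and 13.3 in S4, and Xist, the RNA of the silenced X, reached at most 0.0801 RPKM, so the 8 libraries match in carrying Y-linked RNA. By chromosome, the median difference lay between -0.067 and 0.068 on X and all autosomes but 3. It was 0.13 on chromosome 10 (0.11 to 0.14 in the 4 libraries of S3 and S4, over 593 genes), 0.13 on chromosome 16 (0.071 to 0.18, over 396 genes) and -0.16 on chromosome 19 (-0.17 to -0.14, over 467 genes), while S1 and S2 libraries lay between -0.043 and 0.035 on these 3. The 10 genes kept of the Y chromosome had a median of 0.28 (0.060 to 0.47), with 90% of them higher in S3 and S4 and 0 apart. Chromosome 16 held 34 genes apart higher and 8 lower, and chromosome 19 held 17 and 39.

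**Figure D4:**
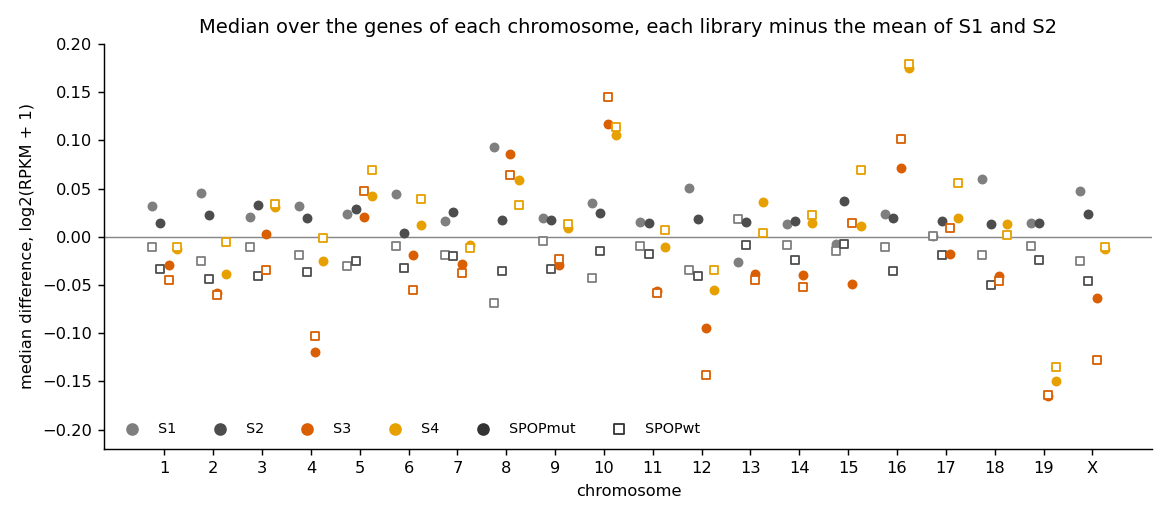
Median over the genes kept of each chromosome of the difference of each library from the mean of S1 and S2 (log2 scale), with filled circles for SPOPmut and open squares for SPOPwt. The 4 S3 and S4 libraries lie together above 0 on chromosomes 10 and 16 and below 0 on chromosome 19 (-0.17 to -0.14).

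Genotype is balanced over the sets, so the effect of SPOPmut could be tested within pairs, along with its difference between the sets. The effect of genotype differed between S3 and S4 and S1 and S2 at an adjusted p under 0.05 in 0 of 13827 genes (0%) by limma. At an unadjusted p under 0.05 there were 1606 (11.6%), of which 413 had a higher effect in S3 and S4 and 1193 a lower one, with splits of 634 and 700 after quantile normalization and 604 and 773 with equal sums per library. The smallest adjusted p was 0.400. The 3 genes of smallest p in each direction therefore did not pass the test, and their values follow. Ifi27l2a, an interferon-induced mitochondrial protein, had a SPOPmut minus SPOPwt difference of -0.40 in S1, -0.52 in S2, 0.54 in S3 and 0.56 in S4. The mutant was lower in both pairs of S1 and S2 and higher in both of S3 and S4 (interaction 1.01 ± 0.12, limma adjusted p = 0.400). Mfap5 (1.00 ± 0.12) and the apolipoprotein L gene Apol9a (0.98 ± 0.11) had the same signs, at the same limma adjusted p of 0.400. Saa3 had the reverse: 0.65 in S1, 0.45 in S2, -0.85 in S3 and -0.66 in S4 (interaction -1.30 ± 0.12, limma adjusted p = 0.400). The repressor Hic1 (-0.81 ± 0.10) had the signs of Saa3, and Nid2 (-0.88 ± 0.095) was higher in the mutant by 0.89 and 0.85 in S1 and S2 and near 0 in S3 and S4 (limma adjusted p = 0.400 for both).

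The effect of genotype over S1 to S4 passed an adjusted p under 0.05 in limma in 0 genes (0%). At an unadjusted p under 0.05 there were 1288 (9.32%), 767 higher and 521 lower in SPOPmut. That direction depended on the scaling: the split was 700 and 685 after quantile normalization and 561 and 770 with equal sums per library. The smallest adjusted p was 0.104, for Enpp2, which makes the signalling lipid lysophosphatidic acid. It stood at 5.30 and 8.48 RPKM in S1, 5.92 and 10.9 in S2, 41.5 and 68.7 in S3 and 8.09 and 13.7 in S4. The control was higher in all 4 pairs, by a difference of -0.70 ± 0.055, while S3 was far above S1, S2 and S4 in both genotypes. Sprr2a1 (-0.56 ± 0.067; a family of near copies) and Gm27223 (-0.44 ± 0.054) were next on the lower side, each lower in 4 of 4 pairs with a limma adjusted p of 0.202. On the higher side were Syn3 (0.47 ± 0.058), Timp3, a protease inhibitor held in the matrix (0.47 ± 0.059), and the protocadherin Pcdh18 (0.42 ± 0.052), each higher in 4 of 4 pairs and each with a limma adjusted p of 0.202. Timp3 lies within Syn3 on the opposite strand, so their reads cannot be told apart. Both tests rest on 4 pairs, and S1 and S2 were nearly alike, so they may not be independent of each other.

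**Figure D5:**
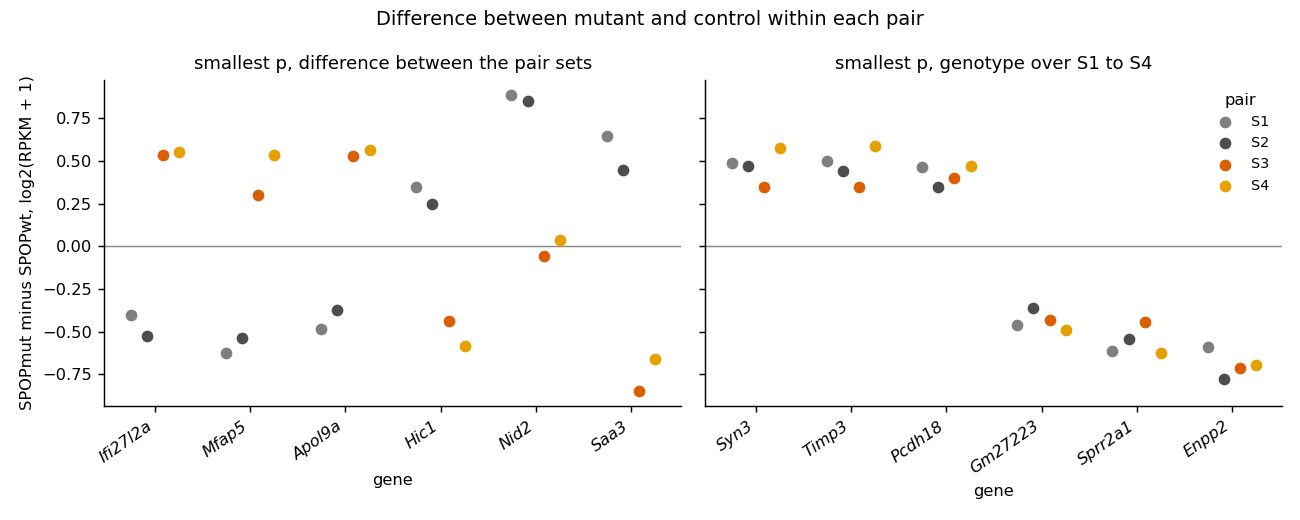
SPOPmut minus SPOPwt on the log2(RPKM + 1) scale within each of the pairs S1 to S4, for the 3 genes of smallest p in each direction in the test of the difference between the sets (left) and in the test of genotype (right). Points of S1 and S2 lie on one side of 0 and those of S3 and S4 on the other for 5 of the 6 genes on the left, while all 4 pairs agree in sign for the 6 genes on the right; 0 of the 12 passed an adjusted p under 0.05.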

How the data were processed

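RNA of 12 mouse prostate organoid cultures, as 6 pairs of 1 SPOPmut and 1 SPOPwt library, was sequenced as paired-end libraries from a kit that does not keep strand, per the labels' protocols. Reads were aligned with STAR 2.4.0j to mm10 (GRCm38), per the submitters' processing notes. The authors deposited 1 RPKM value per gene and library. Their counting program and annotation are not named by any source used here. Whole reads could not be recovered from these values: 40.8 to 43.3% of low values (20 reads or fewer) in the 8 libraries lay within 0.04 reads of a 0.5-read step, where chance gives 16%. No count test was therefore run.

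From the RPKM values, log2(RPKM + 1) was computed, which understates differences of low genes, and genes below an RPKM of 1 in 5 or more of the 8 libraries were left out. The difference between the sets, with genotype as a covariate, is given with its SE and no p. That SE takes no account of the pairs. The genotype effect and its difference between the sets were tested with limma 3.58.1 in R 4.3.3 (pair as a block, trended and robust variance prior, Benjamini-Hochberg adjustment over all genes kept). The fit was run on simulated data with independent noise of the spread of S1 and S2 and no pair effects. S3 and S4 spread more widely, so that run does not show how the fit performs on these data. Tables, motif searches and figures were made in Python 3.11.15 (numpy 2.4.6, pandas 2.3.3, matplotlib 3.10.9, scipy 1.17.1). Positions, lengths and overlaps come from GENCODE M21, which holds 39432 of the 43243 names (91.2%).

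The members, the 56 gene lists and the tests were chosen with earlier results of these data known. The genes named by rule were the 3 marking genes, Spop, the 12 of largest difference in each direction with an RPKM of 10 or more in the higher set, up to 4 members apart per list (or else the most abundant member), the most abundant marker of each cell type, and the 3 of smallest p in each direction per test. Any other gene was named after its values were seen. Some genes that the rule names are not reported here. Alternatives were another pseudocount, filters, scalings, single genotypes, a lower difference, the tests without the pair block or without the trend, and leaving out each pair or library.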

Additional observations from a re-analysis of the deposited data

Results flagged for a closer look

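Each of the 150 genes named by rule was checked in the 4 libraries of S1 and S2 and in the 4 of S3 and S4, and 9 of these 300 groups held a library whose gap to the nearest other one was above Dixon's 95% critical share of the whole range. Chance flags about 1 in 20 such groups. In S1 and S2, Col12a1 was lowest in the S1 mutant (3.529 RPKM, others 4.41 to 4.55), Cxcl5 was lowest in the S1 mutant (152 RPKM, others 199 to 204), and Spp1 was lowest in the S1 control (162.7 RPKM, others 211 to 222). Also in S1 and S2, the S2 control was highest for Csf2 (0.3008 RPKM), Grem1 (2.293 RPKM, others 0.978 to 1.09) and Mmp13 (0.7153 RPKM, others 0.388 to 0.400). In S3 and S4, the S3 control was highest for Ccdc85b (20.81 RPKM, others 7.73 to 8.74) and Mir7654 (3.806 RPKM, others 0.456 to 0.668), and the S4 mutant was highest for the adhesion molecule Ncam1 (14.71 RPKM, others 6.75 to 7.36).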

How the results depend on the processing

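Of 126 named genes that stood apart, 0 changed sign under the 22 alternatives. The rule for apart fixes that sign wherever libraries are left out or the pseudocount, filter or cutoff changes. Only the scalings could have turned it, so the 0 is no measure of stability. Of the other named genes 8 did in at least 1 of them (Cd24a, Dst, Gm27223, Hoxa10, Hoxd8, Pcdh18, Spop and Sprr2a1), as did 4 list medians: glycolysis (0.0024, down to -0.0996), cholesterol synthesis (0.19, -0.0985 in SPOPmut libraries), Cdk inhibitors (-0.31, 0.0037 with no filter) and cytokines (0.26, -0.0050 without the S4 control). Of the list medians 593 of 704 values moved by less than the spread between libraries, as did 2818 of 3044 values of the named genes. The cause of a move was not tested, except that settings with fewer libraries or a stricter filter test fewer genes. The counts of 712 genes apart higher and 589 lower became 423 and 499 at an RPKM of 5 or more, 557 and 618 in SPOPmut libraries and 1717 and 1683 at a 1.5-fold difference. Leaving out a pair or library gave 382 to 868 higher and 160 to 1244 lower, the extremes being without S3 (382 and 160) and without S4 (868 and 1244). Single libraries of S3 or S4 also counted: the lower count was 383 without the S3 mutant and 336 without the S3 control (464 higher), 759 without the S4 mutant (660 higher) and 896 without the S4 control (713 higher), so that lower genes were the larger number without S4 or either of its libraries.

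Over the same omissions, list medians ran from -2.141 (without S4) to -0.4922 (without S3) for DNA replication, -2.252 to -0.4787 for mitosis and -1.38 to -0.5764 for ribosome biogenesis. They ran from 0.3148 (without S4, 6 members) to 1.088 (7 members) for fibrillar collagens, 0.8491 to 1.156 for matricellular genes and 1.118 to 1.5 for elastic fibre genes. The range was 2.163 to 2.698 for complement, 0.6527 to 1.042 for interferon genes and 0.9235 to 1.426 for class I genes. Where S3 or S4 libraries were left out, the filter kept 15 interferon genes in place of 24. With a pseudocount of 0.1 the median was 1.555 for elastic fibre and 1.354 for interferon genes, and with equal sums (TPM) 1.541 and 1.303. With no filter it was 0.8054 for matricellular genes, 0.9977 for proteases and 0.5943 for complement, and quantile normalization gave 1.242 for proteases. SPOPmut libraries alone gave 0.2424 for fibrillar collagens (6 members), 1.207 for matricellular and 0.7714 for interferon genes (15 members). SPOPwt libraries alone gave 0.6476 for interferon genes (15 members). For genes at an RPKM of 1 in all 8 libraries, a setting added after seeing the data, fibrillar collagens gave 0.6105 and interferon genes 0.6913.

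Both limma tests called 0 genes at an adjusted p under 0.05 under all 12 alternatives, so these do not bear on stability. Mutant and control of the same number deviated together in S3 and S4 (correlation 0.855) but not in S1 and S2 (-0.117). Without the replicate block, 96 and 250 genes were at an unadjusted p under 0.05 with a higher and a lower interaction, and 314 and 187 for genotype, with 0 called. With the crossed pairing of S1 and S2, added after seeing the data, the replicate block gave 528 and 1391 and, for genotype, 819 and 581, again with 0 called.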
